A study of Mus musculus with 8 samples.

Results

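The 36 genes described here encode the contractile apparatus, the calcium handling proteins, the energy supply, the natriuretic peptides and a set of transcription factors of heart and other striated muscle. They were taken by gene symbol from the 38355 genes counted in mouse colon tumours, after it was known from these same tumours that many of them were higher in 1 genotype. Group differences of these genes are therefore given as a description. How many of them passed in the fit of all genes is stated once, and nothing is drawn from it. Their spread among tumours of a group was not a stated criterion in choosing them. It is not independent of the choice, because a group difference is easier to see in genes of small spread. Each of the 36 symbols matched 1 gene of GENCODE M21 (GRCm38), and the genes lie on 14 chromosomes.

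Both genotypes carried a Trp53 loss labelled ΔIEC, which denotes the intestinal epithelium, and both received azoxymethane, a colon carcinogen. Trp53ΔIECAktE17K mice carried in addition the AktE17K allele, an activated form of the kinase Akt. Poly(A) RNA from 1 whole colon tumour of each of 8 mice was sequenced, 4 per genotype, so that every library holds epithelium and stroma together. The sources used here do not give the driver of the recombination, the age of the mice or the position of the tumours in the colon, and the replicate numbers carry no stated link between genotypes.

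Heart and skeletal muscle contract through sarcomeres, in which thick filaments of myosin slide along thin filaments of actin that are anchored at the Z-disc. Calcium released from the sarcoplasmic reticulum binds troponin and starts the contraction, and the calcium pump of the reticulum ends it. Several components exist as separate genes for heart muscle, slow skeletal muscle and fast skeletal muscle. In the heart these genes depend on transcription factors such as Nkx2-5, Tbx5, Tbx20, Gata4 and members of the Mef2 family. The colon wall contains smooth muscle, which has no sarcomeres.

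The 8 libraries held 18572180 to 26268547 reads assigned to genes. Levels are given as CPM, the counts of a gene relative to all assigned reads of its library on the per-million scale, after scaling by trimmed means (TMM). In the fit of both genotypes with edgeR's quasi-likelihood test, 569 of 16539 genes tested were higher in Trp53ΔIECAktE17K tumours at an adjusted p under 0.05, which is 3.44% of them, and 125 were lower, which is 0.756%. With Trp53ΔIEC replicate 1, 2, 3 or 4 removed, the higher count was 217, 64, 72 or 67 and the lower count 37, 10, 14 or 12. Removing Trp53ΔIECAktE17K replicate 1 or 2 gave 155 or 252 higher genes, and removing its replicate 1, 2 or 4 gave 25, 37 or 247 lower genes.

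Promoter sequence is shown for 4 of the genes because each carries a match to a motif of a muscle or heart regulator: Mybpc3 and Ttn as structural genes with a MEF2 box, Myh7 with the TEAD motif, and Nppa with the T-box motif. They were picked after levels were seen, among promoters whose 250 bases before the RefSeq start hold no annotated exon in GENCODE M21. Each is written in the direction of the gene, from the RefSeq promoter table (GRCm38.p6), and capitals mark the motif match. The Mybpc3 window is chr2:91117894-91118143 (plus strand) and its MEF2 box begins 90 bases before the start. The Ttn window is chr2:76982548-76982797 (minus strand) and its MEF2 box begins 166 bases before the start. The Myh7 window is chr14:54994627-54994876 (minus strand), with CATTCC read on the other strand as GGAATG, 201 bases before the start. The Nppa window is chr4:148000472-148000721 (plus strand), with AGGTGT read on the other strand as ACACCT 248 bases before the start, and with TATAAA 9 bases before it.
Mybpc3: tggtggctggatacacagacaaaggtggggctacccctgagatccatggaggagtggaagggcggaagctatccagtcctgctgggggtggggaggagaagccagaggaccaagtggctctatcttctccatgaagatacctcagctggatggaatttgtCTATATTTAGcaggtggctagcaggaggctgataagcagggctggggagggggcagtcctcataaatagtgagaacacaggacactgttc
Ttn: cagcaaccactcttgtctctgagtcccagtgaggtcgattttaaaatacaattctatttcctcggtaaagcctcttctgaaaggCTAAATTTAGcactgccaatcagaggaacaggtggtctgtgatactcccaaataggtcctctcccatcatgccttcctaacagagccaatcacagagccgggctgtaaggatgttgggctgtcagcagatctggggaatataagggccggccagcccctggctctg
Myh7: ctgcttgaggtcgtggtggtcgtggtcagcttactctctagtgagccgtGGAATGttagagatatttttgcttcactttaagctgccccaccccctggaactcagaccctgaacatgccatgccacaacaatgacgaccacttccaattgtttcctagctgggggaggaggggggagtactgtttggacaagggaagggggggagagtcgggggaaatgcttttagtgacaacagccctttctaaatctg
Nppa: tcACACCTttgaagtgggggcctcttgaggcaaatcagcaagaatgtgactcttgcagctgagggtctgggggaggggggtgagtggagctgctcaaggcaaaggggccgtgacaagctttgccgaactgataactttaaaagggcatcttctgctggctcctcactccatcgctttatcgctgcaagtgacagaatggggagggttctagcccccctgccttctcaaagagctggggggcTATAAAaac

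Of the 36 genes, 31 matched the promoter table, with 38 windows among them of 250 bases before to 50 bases after the start. Both strands were searched. The MEF2 box was found in 5 of the 38 windows (13.2%) and in 3.19% of all 32817 windows. The CArG box, the sequence bound by serum response factor, was found in 5 windows (13.2%), against 1.63% of all. The GATA motif AGATAA was found in 6 (15.8%, against 11.2%), the TEAD motif CATTCC in 8 (21.1%, against 14.7%), and the T-box motif AGGTGT in 4 (10.5%, against 13.7%). TATAAA was found in 6 windows (15.8%, against 13.6%). A match describes the letters only and is no evidence of binding.

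Most of the heart and striated muscle genes were barely counted in Trp53ΔIEC tumours, and all but Nppa and Tbx5 were counted in every Trp53ΔIECAktE17K tumour. In Trp53ΔIEC tumours 25 of the 36 had a mean under 1 CPM and 3 (Myl3, Csrp3 and Nkx2-5) had no count at all. Leaving out Atp2a2, which is abundant in many tissues, the other genes summed to 66.1, 68.4, 37.3 and 43.3 CPM in the 4 Trp53ΔIEC tumours and to 328.7, 280.9, 306.6 and 334.6 CPM in the 4 Trp53ΔIECAktE17K tumours. The sums did not overlap. In whole tumours, fewer cells of a type and less RNA per cell cannot be told apart.

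Counted against the fit of all genes, 24 of the 36 passed as higher in Trp53ΔIECAktE17K, where 3.44% of all genes tested did, and none passed as lower. Another 9 were tested and did not pass, and 3 (Nppa, Nkx2-5 and Tbx5) had too few reads to be tested. Of the 33 that entered the fit, 22 fell short of its minimum level in at least 1 Trp53ΔIEC tumour. For 27 of the 36 genes the groups did not overlap, all of them higher in Trp53ΔIECAktE17K, where 8.34% of all genes tested did so. The 27 include Nkx2-5, which was not tested, while that share covers tested genes only. These counts restate how the genes were chosen and carry no further weight. Leaving out single tumours gave 18 to 23 called genes, and 18 genes kept their calls in all 8 removals. Tnni3 kept its call in 0 of 8 removals, Myom1 in 1, Hrc and Eef1a2 in 2 each, Ckmt2 in 3 and Myoz2 in 5.

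**Figure D1:**
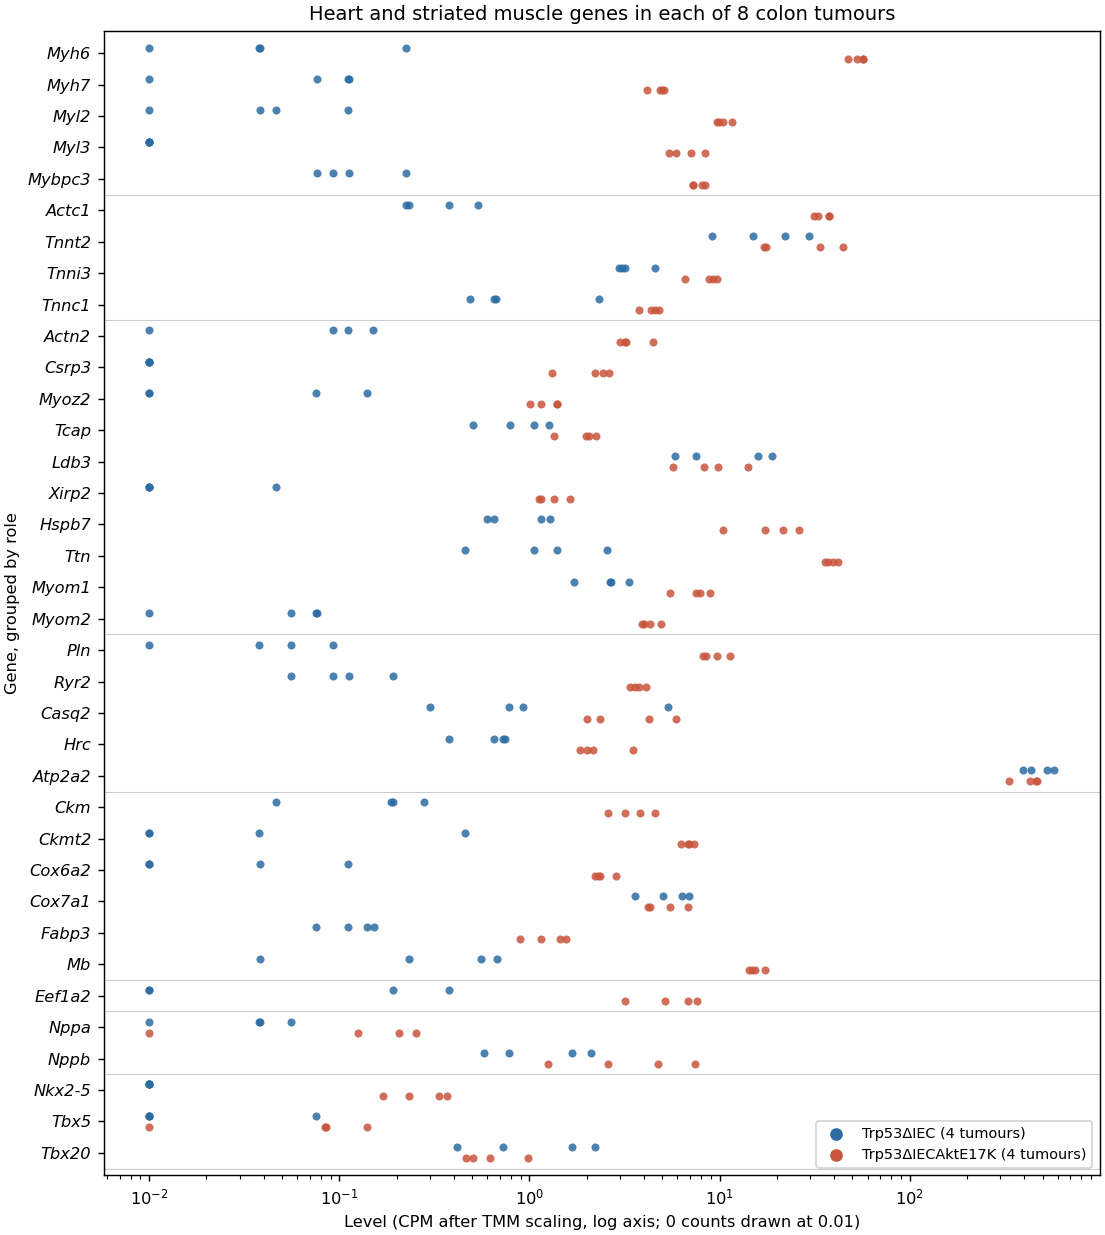
Level of each of the 36 genes in each of 8 tumours, in CPM after TMM scaling on a log axis, grouped by role; each point is 1 tumour, blue for Trp53ΔIEC and red for Trp53ΔIECAktE17K, and a tumour without a count is drawn at 0.01. For 27 genes all red points lie to the right of all blue ones, while Tnnt2, Ldb3, Casq2, Atp2a2, Cox7a1, Nppb and Tbx20 are among those that overlap.

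Thick filament genes gave the widest separation. Myh6, the fast cardiac myosin heavy chain of the adult mouse ventricle (chr14:54941921-54966927, minus strand), was at 0.0383, 0.0376, 0.223 and 0 CPM in Trp53ΔIEC replicates 1 to 4. In Trp53ΔIECAktE17K replicates 1 to 4 it was at 52.6, 47.6, 56.8 and 57.0 CPM, or 53.5 ± 4.42 CPM (SD, n = 4). The Trp53ΔIEC group held 6 Myh6 reads in all and the Trp53ΔIECAktE17K group 4974, and the fitted log2 fold change was 9.53 ± 0.58 (SE). No Trp53ΔIEC tumour came near the lowest Trp53ΔIECAktE17K tumour. Myh7, the slow cardiac and skeletal myosin heavy chain that lies beside Myh6 (chr14:54970684-54994626, minus strand), was at 0.0765, 0.113, 0.112 and 0 CPM in Trp53ΔIEC and at 5.08, 4.16, 4.96 and 4.89 CPM in Trp53ΔIECAktE17K. The 4 Trp53ΔIECAktE17K tumours lay close together for Myh7 as they did for Myh6.

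The light chains followed. Myl2, the ventricular regulatory light chain, was at 0.0383, 0, 0.112 and 0.0465 CPM in Trp53ΔIEC and at 9.95, 10.4, 9.74 and 11.6 CPM in Trp53ΔIECAktE17K (log2 fold change 7.70 ± 0.59, SE). Myl3, the ventricular essential light chain, had no read in any Trp53ΔIEC tumour and stood at 5.88, 5.39, 7.06 and 8.43 CPM in Trp53ΔIECAktE17K. With the Trp53ΔIEC group set to 3 counts, Myl3 was 204-fold higher. Ratios of this kind take the Trp53ΔIECAktE17K reads as exact and leave out variation between mice. Both light chains were thus near or at 0 in every Trp53ΔIEC tumour. Mybpc3, the cardiac myosin binding protein, was at 0.0765, 0.113, 0.223 and 0.0931 CPM in Trp53ΔIEC and at 7.28, 7.24, 8.06 and 8.34 CPM in Trp53ΔIECAktE17K, with no overlap.

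Thin filament genes were mixed. Actc1, the cardiac actin (chr2:114047282-114053548, minus strand), was at 0.536, 0.376, 0.223 and 0.233 CPM in Trp53ΔIEC and at 31.2, 33.1, 37.5 and 37.8 CPM in Trp53ΔIECAktE17K (log2 fold change 6.62 ± 0.32, SE). The groups were far apart. Tnni3, the cardiac inhibitory troponin, was at 2.95, 4.59, 3.18 and 3.07 CPM in Trp53ΔIEC and at 6.56, 8.85, 9.66 and 9.27 CPM in Trp53ΔIECAktE17K. Its groups did not overlap, and its log2 fold change was 1.31 ± 0.26 (SE). Tnnc1, the calcium-binding troponin of heart and slow skeletal muscle, was at 2.33, 0.489, 0.67 and 0.651 CPM against 4.57, 3.79, 4.83 and 4.38 CPM. It did not overlap either. Tnnt2, the cardiac tropomyosin-binding troponin, was already at 22.0, 29.5, 9.16 and 15.0 CPM in Trp53ΔIEC, and at 44.4, 17.2, 17.5 and 33.9 CPM in Trp53ΔIECAktE17K. Tnnt2 overlapped between the groups, with a log2 fold change of 0.58 ± 0.43 (SE).

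The genes of the Z-disc, the M-band and titin ranged from no difference to groups far apart. Ttn, the giant elastic filament that spans the sarcomere from Z-disc to M-band (chr2:76703980-76982547, minus strand), was at 0.459, 1.39, 1.06 and 2.56 CPM in Trp53ΔIEC and at 37.0, 35.9, 42.0 and 39.3 CPM in Trp53ΔIECAktE17K (log2 fold change 4.82 ± 0.48, SE). Its groups were well separated. Actn2, the actin crosslinker of the Z-disc, was at 0, 0.15, 0.112 and 0.0931 CPM against 3.01, 3.17, 4.49 and 3.21 CPM. Csrp3, a LIM protein of the Z-disc, had no read in Trp53ΔIEC and stood at 2.20, 1.32, 2.44 and 2.61 CPM in Trp53ΔIECAktE17K. With the Trp53ΔIEC group set to 3 counts, Csrp3 was 65.2-fold higher. Actn2 and Csrp3 were near or at 0 in every Trp53ΔIEC tumour. Hspb7, a small heat shock protein of heart and skeletal muscle, was at 1.15, 0.602, 1.29 and 0.651 CPM against 26.1, 17.3, 21.6 and 10.4 CPM, with no overlap but a spread of 18.9 ± 6.68 CPM (SD, n = 4) in Trp53ΔIECAktE17K.

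The M-band genes Myom1 and Myom2, which crosslink myosin, were both higher without overlap. Myom1 was at 2.64, 2.67, 3.35 and 1.72 CPM against 7.92, 5.47, 7.56 and 8.94 CPM, and Myom2 stood at 4.32, 3.91, 4.91 and 4.00 CPM in Trp53ΔIECAktE17K, with a fitted fold of 72.9. Among low genes, Myoz2, which binds calcineurin at the Z-disc, was at 0, 0.0752, 0 and 0.14 CPM against 1.4, 1.15, 1.01 and 1.4 CPM. Xirp2, an actin-binding repeat protein, had 1 read in Trp53ΔIEC, and its ratio of scaled counts was 122 with a 95% exact interval of 21.4 to 4840, which covers counting error only. These genes kept low absolute levels in both groups. Tcap, the titin cap, was at 1.26, 1.05, 0.503 and 0.791 CPM against 2.24, 1.98, 2.06 and 1.35 CPM, without overlap. Ldb3, a Z-disc protein also made in smooth muscle, was at 16, 18.8, 5.81 and 7.49 CPM against 9.78, 8.31, 5.71 and 14.2 CPM, with overlap and a log2 fold change of -0.34 ± 0.44 (SE).

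In calcium handling, the reticulum pump and its inhibitor differed in pattern. Pln, the phospholamban that restrains the pump in heart, was at 0, 0.0376, 0.0559 and 0.0931 CPM in Trp53ΔIEC and at 9.74, 8.44, 8.19 and 11.4 CPM in Trp53ΔIECAktE17K (log2 fold change 7.57 ± 0.58, SE). Atp2a2, the pump itself, which many tissues express, was at 396, 436, 525 and 576 CPM against 463, 429, 331 and 470 CPM. The groups of Atp2a2 overlapped, with a log2 fold change of -0.19 ± 0.17 (SE), while those of Pln did not. Ryr2, the calcium release channel of heart, was at 0.191, 0.113, 0.0559 and 0.0931 CPM against 3.39, 4.12, 3.61 and 3.77 CPM. Hrc, a calcium-binding protein of the reticulum, was at 0.651, 0.376, 0.726 and 0.745 CPM against 2.16, 2.02, 1.85 and 3.49 CPM. Neither overlapped. Casq2, the cardiac calcium store protein, was at 5.36, 0.301, 0.782 and 0.931 CPM against 5.93, 2.02, 2.35 and 4.24 CPM, and overlapped because Trp53ΔIEC replicate 1 stood far above the other Trp53ΔIEC tumours.

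Among the genes of energy supply and oxygen binding, Cox7a1 was the one whose groups overlapped. Mb, the oxygen-binding myoglobin, was at 0.0383, 0.677, 0.559 and 0.233 CPM against 14.7, 14.3, 15.5 and 17.3 CPM, or 15.4 ± 1.32 CPM (SD, n = 4) in Trp53ΔIECAktE17K. Ckmt2, the mitochondrial creatine kinase of striated muscle, was at 0.459, 0.0376, 0 and 0 CPM against 6.90, 6.79, 6.30 and 7.36 CPM. Ckm, its cytosolic partner, was at 0.191, 0.188, 0.279 and 0.0465 CPM against 3.17, 2.59, 3.82 and 4.56 CPM. All 3 were separated by wide gaps. Cox6a2, the striated muscle form of a cytochrome oxidase subunit, had 3 reads in Trp53ΔIEC and stood at 2.2, 2.3, 2.35 and 2.84 CPM in Trp53ΔIECAktE17K, a ratio of scaled counts of 74.1 (25.0 to 362, 95% exact interval). Cox7a1, the muscle form of another subunit of the same complex, which brown fat and smooth muscle also express, was at 6.35, 3.57, 6.93 and 5.03 CPM against 5.5, 4.32, 4.2 and 6.85 CPM, with overlap. Fabp3, the heart fatty acid binding protein, was at 0.153, 0.0752, 0.112 and 0.14 CPM against 0.889, 1.15, 1.55 and 1.44 CPM, without overlap. Eef1a2, the translation elongation factor form of muscle and neurons, was at 0.191, 0.376, 0 and 0 CPM against 7.62, 6.83, 5.17 and 3.17 CPM, without overlap and with a wide spread in Trp53ΔIECAktE17K.

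Some of these genes share sequence with a copy. Stretches of 50 bases were taken from the longest protein-coding transcript of each gene and searched in the transcripts of all other genes. Of these stretches, 22.6% of those of Myh6 also occur in another gene and 22.2% of those of Myh7, each mostly in the other. For Fabp3 the share was 29.2%, mostly in the pseudogene Fabp3-ps1. The shares were 4.58% for Atp2a2 and 1.10% for Hspb7, and under 0.5% for the other genes. Reads from such stretches could be split or lost in counting, so the levels of Myh6, Myh7 and Fabp3 are less certain than the rest. The library kit does not record strand, so reads from overlapping antisense transcripts could not be separated.

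The natriuretic peptides, hormones of heart muscle, overlapped between the groups. Nppa, the atrial peptide, was at 0.0383, 0.0376, 0.0559 and 0 CPM in Trp53ΔIEC and at 0.254, 0.206, 0.126 and 0 CPM in Trp53ΔIECAktE17K. This was 3 reads against 14, a ratio of scaled counts of 4.61 (1.29 to 25.0, 95% exact interval), and 1 tumour of each group had none. Nppb, the brain-type peptide, which is also made outside the heart, was at 0.574, 2.11, 0.782 and 1.68 CPM against 2.58, 7.41, 1.26 and 4.75 CPM. The groups of Nppb overlapped, with a log2 fold change of 1.63 ± 0.63 (SE).

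Among the transcription factors, Nkx2-5 was the one with no overlap. Nkx2-5, the homeodomain factor of early heart (chr17:26838664-26845009, minus strand), had no read in any Trp53ΔIEC tumour and was at 0.169, 0.370, 0.336 and 0.233 CPM in Trp53ΔIECAktE17K. These were 26 reads over 4 tumours, 8.56-fold higher when the Trp53ΔIEC group is set to 3 counts. That ratio takes the 26 reads as exact and leaves out variation between mice. Tbx5, the T-box factor of heart and forelimb, was at 0, 0.0752, 0 and 0 CPM against 0.0847, 0, 0.084 and 0.14 CPM. This was 2 reads against 7, a ratio of 3.46 (0.659 to 34.1, 95% exact interval), so a difference was not detectable at this depth. Tbx20, another T-box factor of the heart, was at 2.22, 0.414, 0.726 and 1.68 CPM against 0.508, 0.617, 0.462 and 0.978 CPM. It overlapped, and its log2 fold change was -0.97 ± 0.54 (SE).

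Read per length, the 3 transcription factors were among the lowest of the 36 genes within the Trp53ΔIECAktE17K tumours. Per kb of merged exons, Actc1 had the highest mean of the genes that were near 0 in Trp53ΔIEC, at 21.6 CPM per kb, ahead of Mb at 10.3, Myh6 at 7.95, Hspb7 at 6.82 and Myl2 at 5.35 CPM per kb. Nkx2-5 stood at 0.161 CPM per kb, Tbx20 at 0.0535 and Tbx5 at 0.0165 CPM per kb. The long structural genes came close to them, with Xirp2 at 0.110 and Ryr2 at 0.129 CPM per kb below Nkx2-5 and Ttn at 0.330 CPM per kb above it. Regulators outside the 36 genes ranged from Foxh1 at 0.109 and Myocd at 0.124 CPM per kb, both below Nkx2-5, to Srf at 32.6 CPM per kb. Hand2 stood at 3.35 and Ankrd1 at 5.28 CPM per kb. Myh6 exceeded Nkx2-5 by 49.3 times per kb, with 79.4, 32.8, 43.2 and 62.5 times in replicates 1 to 4, and by 31.7 times with coding length. With 26 reads behind Nkx2-5, these ratios are imprecise.

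In 17 pairs a heart form was set beside a related gene of other muscle or of another part or stage of the heart. In Trp53ΔIECAktE17K the heart form had the higher mean per kb of merged exons in 14 pairs. It had the lower one in 3, those of Myl2, Ryr2 and Casq2. Myh6, Myl3 and Mybpc3 enter more than 1 pair. In Trp53ΔIEC the heart form was also the higher one in some pairs and the lower one in others. Its ratio of means there was 1.51 for Tnnt2 over Tnnt1 and 452 for Atp2a2 over Atp2a1. The pairs were picked after levels were seen and are a description. Myh6 exceeded Myh7 in every Trp53ΔIECAktE17K tumour, by 13.3, 14.7, 14.7 and 14.9 times. Actc1 exceeded Acta1, the skeletal actin, by 2.97, 6.88, 9.62 and 2.49 times, whereas in Trp53ΔIEC the ratio of means was 0.043. Acta1 itself was at 10.9, 4.14, 10.1 and 5.03 CPM in Trp53ΔIEC and at 9.99, 4.57, 3.7 and 14.4 CPM in Trp53ΔIECAktE17K, so the turn in order came with Actc1. Myl3 exceeded Myl4, the atrial and embryonic light chain, by 9.31 times (3.88 with coding length), and Pln exceeded Sln, the atrial pump inhibitor, by 30.6 times, both as ratios of means. Tnni3 exceeded Tnni1, the slow skeletal and fetal form, by 0.822, 19.7, 2.48 and 1.31 times, or 1.77 as a ratio of means, and with coding length in place of merged exons the ratio was 0.899, so its order is not settled. Ryr2 lay below Ryr1, the skeletal release channel, at 0.652, 0.393, 0.323 and 0.890 times its level. Casq2 stood to Casq1, the skeletal store protein, at 1.96, 0.343, 0.614 and 0.865, or 0.824 as a ratio of means and 1.12 with coding length. Myl2 did not exceed Myl7, the atrial regulatory light chain, with a ratio of means of 0.0963 (0.316 with coding length and 0.211 with the longest transcript). Myl7 was high in both groups, at 11.1, 34.2, 102 and 25.6 CPM in Trp53ΔIEC and 31.4, 30.4, 10.4 and 58.8 CPM in Trp53ΔIECAktE17K, and overlapped.

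**Figure D2:**
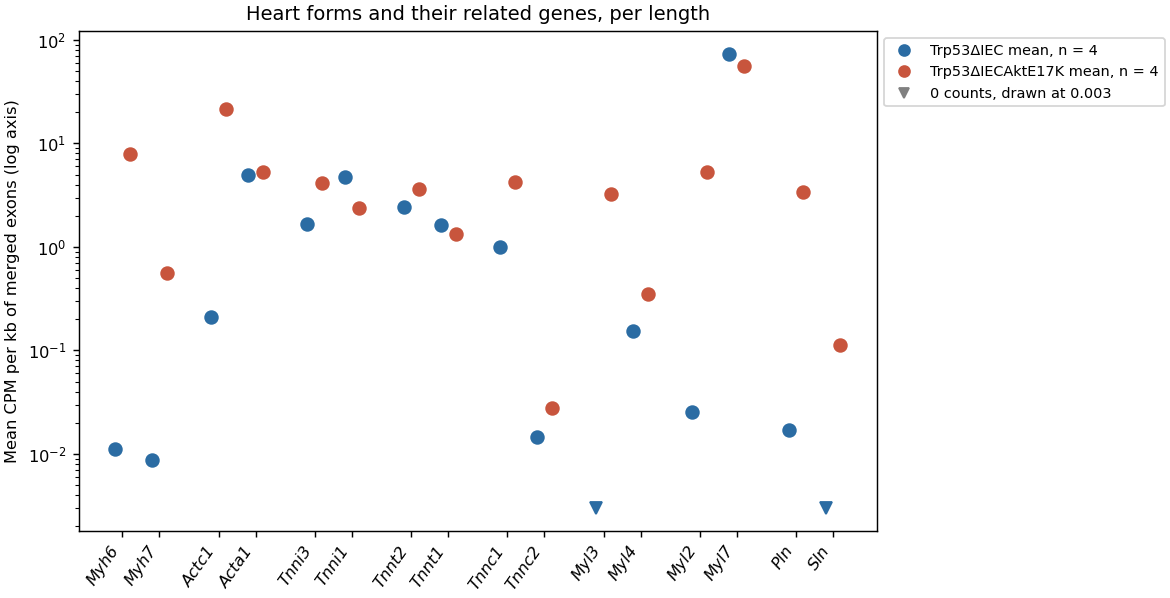
Mean level per kb of merged exons (CPM per kb, log axis) of heart forms and their related genes, blue for Trp53ΔIEC and red for Trp53ΔIECAktE17K (mean of 4 tumours each, without error bars), with triangles at 0.003 for groups without a count. In red, Myh6 at 7.95 stands above Myh7 at 0.554 and Actc1 at 21.6 above Acta1, while Myl7 is high in both groups.

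The spread among the 4 Trp53ΔIECAktE17K tumours was small for many of the heart and striated muscle genes. It was not a stated criterion in choosing them, but it is not independent of the group difference known when they were chosen. The coefficient of variation of CPM (CV, the SD as a percent of the mean) was 8.26% for Myh6, 9.37% for Actc1, 6.94% for Ttn, 7.96% for Myl2, 7.15% for Mybpc3 and 6.36% for Ckmt2. Counting error alone would give 2.84% for Myh6, 3.51% for Actc1, 3.34% for Ttn, 6.42% for Myl2, 7.46% for Mybpc3 and 7.93% for Ckmt2. Mybpc3 and Ckmt2 thus varied no more between mice than their counts allow. In the other genotype, the liver genes Crp and Hpx also varied little, at 5.11 ± 0.388 and 12.1 ± 0.384 CPM (SD, n = 4) in Trp53ΔIEC, and were lower in Trp53ΔIECAktE17K. They are the 2 of 10 tested hepatocyte genes that passed as lower. The median log2 fold change of the 10 was -0.139, and the sums of the hepatocyte list overlapped between the groups. Whether RNA of another tissue or sample entered the libraries was not tested, and it bears on what the levels and the spread of the heart and striated muscle genes mean. The largest spreads among the 36 genes were those of Nppa (75.8%), Tbx5 (74.8%), Nppb (67.2%), Casq2 (49.95%) and Tnnt2 (47.1%). Ldb3 (37.3%), Tbx20 (36.4%), Hspb7 (35.4%) and Eef1a2 (34.6%) came next. Nppa and Tbx5 had few reads, and counting error alone would give 53.5% and 75.6% for them.

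Among the 31 of the 36 genes with a mean count of 20 to 2000 in these tumours, the median CV was 18.2%, or 2.08 times counting error. Over the 12308 tested genes in the same range the median CV was 26.6%, or 4.99 times counting error. A CV under 20% was found for 18 of the 31 (58.1%) and for 35.6% of the 12308, and a CV under 1.5 times counting error for 12 of the 31 and for 7.56% of the 12308. A gene near 0 in Trp53ΔIEC enters the fit only when it reaches the minimum level in the Trp53ΔIECAktE17K tumours, which limits its spread there. Among genes that reached it in all 4 Trp53ΔIECAktE17K tumours but not in all 4 Trp53ΔIEC tumours, the median CV was 15.5% over 21 of the 36 genes and 55.9% over all 724 such genes, and a CV under 20% was found for 14 of the 21 and for 6.91% of the 724. That comparison was added after the values were seen. The 21 genes were also chosen with their group difference known and the 724 were not, so nothing is drawn from the contrast between them. The range of counts was chosen after the values were seen, low counts raise a CV, and genes of 1 tissue are not independent, so no test was made.

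**Figure D3:**
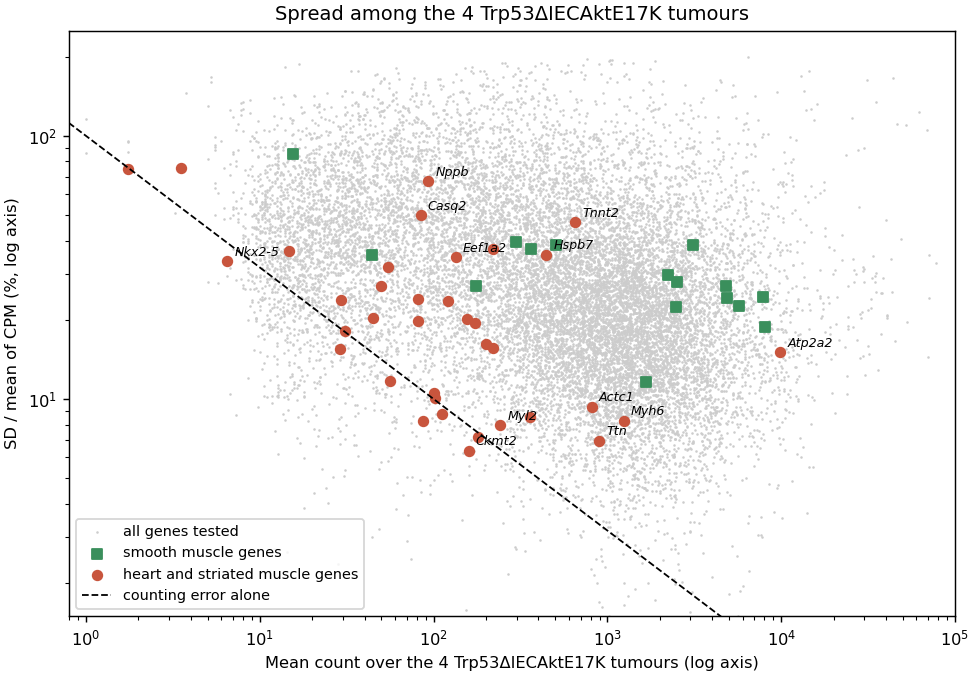
Coefficient of variation of CPM (percent, log axis) against mean count (log axis) over the 4 Trp53ΔIECAktE17K tumours, for all genes tested (grey), smooth muscle genes (green squares) and the heart and striated muscle genes (red circles); the dashed line is counting error alone. Mybpc3 and Ckmt2 lie at the line, Myh6 at 8.26% and Ttn at 6.94% lie low for their counts, and Tnnt2 and Nppb lie among the grey points.

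Tumour by tumour, the median of the heart and striated muscle genes moved little. Setting each gene to its own mean over the 4 Trp53ΔIECAktE17K tumours, the median ratio over the 32 genes with at least 80 reads in these tumours was 1.008, 0.914, 1.025 and 1.111 in replicates 1 to 4. For 15 smooth muscle genes of the gut and vessel wall it was 1.314, 0.753, 0.868 and 1.11, and for 9 pericyte genes, of the cells around small vessels, 1.326, 1.161, 0.637 and 0.858. Replicate 1 was therefore highest for both smooth muscle and pericyte genes and close to the mean for the heart and striated muscle genes. Of the 16 listed smooth muscle genes 15 were tested, and 9 of these passed as higher in Trp53ΔIECAktE17K. All 9 pericyte genes were tested, and 5 passed as higher. None of either list passed as lower. Of all genes tested, 3.44% passed as higher and 0.756% as lower. The smooth muscle list summed to between 619.7 and 987.7 CPM in Trp53ΔIEC and to between 1607 and 2441 CPM in Trp53ΔIECAktE17K. The pericyte list summed to between 184.8 and 301.1 CPM and to between 305.2 and 659.6 CPM. The smooth muscle count was 4 without Trp53ΔIEC replicate 2, 3 or 4 or Trp53ΔIECAktE17K replicate 1. The pericyte count in edgeR was 3, 0, 0 or 0 with Trp53ΔIEC replicate 1, 2, 3 or 4 removed, and 1 or 2 with Trp53ΔIECAktE17K replicate 1 or 2 removed, while DESeq2 called 7 and limma-voom 3 with all tumours and 8 of 9 had an unadjusted p under 0.05. The part of smooth muscle cells in the levels of genes that these cells share with striated muscle was not tested.

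**Figure D4:**
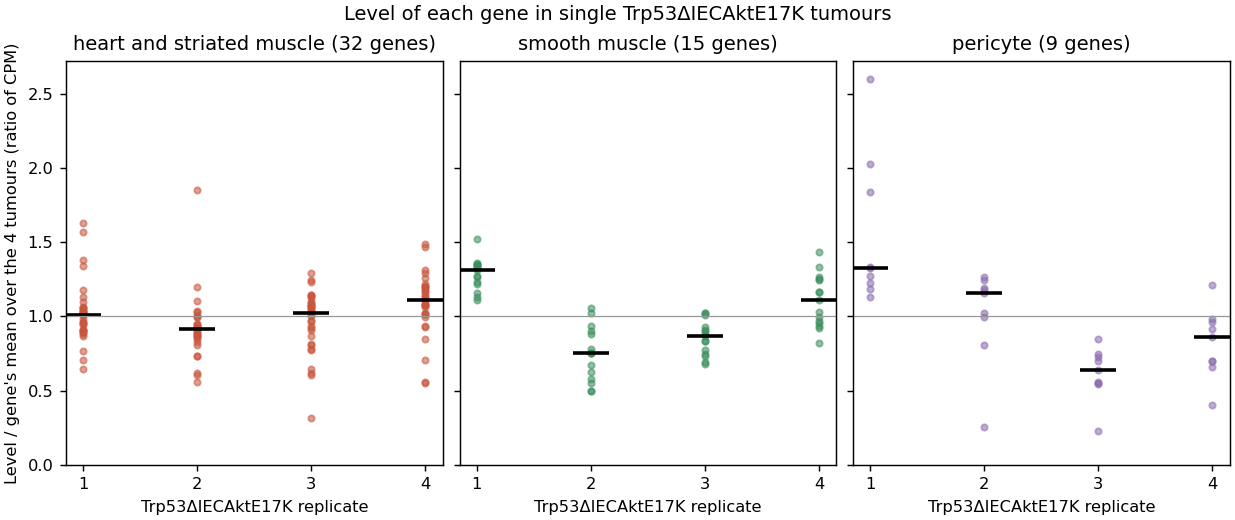
Level of each gene in each Trp53ΔIECAktE17K tumour as a ratio to that gene's mean over the 4 tumours, for 32 heart and striated muscle genes, 15 smooth muscle genes and 9 pericyte genes; each point is 1 gene and the bar is the median. The heart and striated muscle medians stay between 0.914 and 1.111, the smooth muscle medians run from 0.753 to 1.314 and the pericyte medians from 0.637 to 1.326.

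Genes of skeletal muscle were mostly low. Of 34 listed, 15 had enough reads to be tested, and Des and Ryr1 passed as higher. Of all genes tested, 3.44% did. Des, the intermediate filament of all muscle types, was at 22.6, 13, 13.4 and 14.6 CPM in Trp53ΔIEC and at 298, 125, 251 and 214 CPM in Trp53ΔIECAktE17K, and kept its call (adjusted p under 0.05, edgeR) without any single tumour. Ryr1, the skeletal release channel, was at 1.22, 0.94, 1.17 and 0.977 CPM against 3.94, 7.94, 8.48 and 3.21 CPM, and kept its call in 4 of 8 removals. The defining factors of skeletal muscle, Myod1 and Myog, had no read in any of the 8 tumours. Acta1 and Tnnt1, the actin and the slow troponin of skeletal muscle, did not pass.

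Other genes of heart muscle that were not among the 36 were taken from 4 lists, of regulators, structural genes, ion channels and gap junctions, and energy metabolism. Of their 100 genes 76 were tested, 16 passed as higher and none as lower, where 3.44% and 0.756% of all genes did. The count of 16 rested on all tumours: removing Trp53ΔIEC replicate 1, 2, 3 or 4 gave 10, 4, 2 or 2, and removing Trp53ΔIECAktE17K replicate 1 gave 6. At an unadjusted p under 0.05, 36 of the 76 differed in either direction. DESeq2 called 28 higher and 4 lower, and limma-voom 15 higher and none lower.

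In the structural list 12 of 31 tested genes passed as higher, where 3.44% of all genes tested did. With Trp53ΔIEC replicate 1, 2, 3 or 4 removed, the count was 7, 3, 2 or 2. With Trp53ΔIECAktE17K replicate 1 or 2 removed, it was 5 or 7. Bves, a membrane protein of heart and skeletal muscle, had 1 read in Trp53ΔIEC and stood at 1.48, 1.03, 0.882 and 1.12 CPM in Trp53ΔIECAktE17K. Lmod2, which lengthens the thin filaments of heart, had no read in Trp53ΔIEC and stood at 1.23, 1.07, 2.56 and 1.63 CPM in Trp53ΔIECAktE17K. With the Trp53ΔIEC group set to 3 counts, Lmod2 was 49.7-fold higher. Bves and Lmod2 kept their calls (adjusted p under 0.05, edgeR) in all 8 removals of single tumours. Cmya5, a costamere protein of striated muscle, was at 0.268, 0.0752, 0.168 and 0.14 CPM against 2.12, 1.28, 4.03 and 1.72 CPM. Cryab, a small heat shock protein of muscle and lens, was at 6.24, 5.57, 3.86 and 3.82 CPM against 17.5, 20.3, 14.5 and 14 CPM. Cmya5 and Cryab kept their calls in 5 of 8 removals each, and neither overlapped. In energy metabolism 2 of 16 tested genes passed, Pygm, the muscle glycogen phosphorylase, at 1.38, 2.37, 1.79 and 1.12 CPM against 7.92, 6.67, 6.05 and 7.54 CPM, and Fabp4, a fatty acid binding protein that fat and capillaries also make, at 8.11, 4.7, 8.05 and 6.19 CPM against 73.9, 33, 20.2 and 33.5 CPM. Both kept their calls in 5 of 8 removals. No ion channel gene passed in edgeR or limma-voom, with 4 and 3 of 13 at an unadjusted p under 0.05, while DESeq2 called 3.

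The regulator list gave 2 of 16 tested genes as higher, where 3.44% of all genes tested passed as higher. Hand2, a factor of the heart that neurons and mesenchyme of the gut also express, was at 0.191, 0.451, 0.782 and 0.651 CPM in Trp53ΔIEC and at 7.24, 17, 3.95 and 3.35 CPM in Trp53ΔIECAktE17K (adjusted p = 0.025, edgeR). Ankrd1, a stress-induced muscle protein that fibroblasts also express, was at 1.34, 1.8, 1.68 and 2.56 CPM against 16, 31, 6.55 and 7.36 CPM (adjusted p = 0.026, edgeR). Both were highest in Trp53ΔIECAktE17K replicate 2 and kept their calls in 3 of 8 removals. Gata4, the zinc finger factor that heart shares with the upper gut, was at 6.51, 0.226, 0.615 and 0.0465 CPM against 0.762, 0.535, 0.756 and 1.07 CPM and overlapped. Mef2c, a factor of all muscle and of vessels, was at 4.13, 6.35, 10.7 and 6.51 CPM against 28.4, 10.6, 4.58 and 13.6 CPM, also with overlap. Myocd, a coactivator of heart and smooth muscle genes, was at 0.918, 0.714, 0.95 and 0.558 CPM against 0.847, 0.453, 0.672 and 1.21 CPM. None of Gata4, Mef2c and Myocd passed in edgeR.

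In the regulator list, 6 of 20 genes lay higher in every Trp53ΔIECAktE17K tumour than in any Trp53ΔIEC tumour and 1 lay lower, where 8.34% and 5.88% of all genes tested did. The 6 include Tbx18 and Hand1, which were not tested, while those shares cover tested genes only. Of the 20 genes 16 were tested. Besides Hand2 and Ankrd1 the higher ones were Tbx18, Hand1, Rbm24 and Smyd1, and the lower one was Gata6; these 5 are named after their values were seen. Tbx18, a T-box factor of the outer heart layer and of pericytes, had 1 read in Trp53ΔIEC and stood at 1.95, 2.35, 1.68 and 0.419 CPM in Trp53ΔIECAktE17K, a ratio of scaled counts of 150.2 (26.6 to 5972, 95% exact interval). Hand1, the relative of Hand2, had 2 reads in Trp53ΔIEC and stood at 1.27, 2.76, 1.18 and 0.186 CPM, a ratio of 63.7 (17.3 to 532, 95% exact interval). Both were lowest in Trp53ΔIECAktE17K replicate 4, where they fell short of the minimum level of the fit (0.430 CPM), so neither was tested. Rbm24, a splicing regulator of muscle, was at 2.3, 5.72, 9.55 and 6.98 CPM against 18.2, 10.4, 52.4 and 12.8 CPM (adjusted p = 0.124, edgeR). Smyd1, a methyltransferase of heart and skeletal muscle, was at 0.0383, 0.263, 0.615 and 0.0931 CPM against 1.02, 1.19, 1.30 and 1.16 CPM (adjusted p = 0.098, edgeR). DESeq2 called 5 regulators of the list higher and 1 lower. Beside them, of the 3 transcription factors among the 36 genes, Nkx2-5 lay higher in every Trp53ΔIECAktE17K tumour, and Tbx5 and Tbx20 overlapped.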

How the data were processed

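The files hold read counts per gene that the authors deposited, 1 file per tumour. Per the labels' protocols, a Qiagen RNeasy column kit gave the RNA and the TruSeq v2 mRNA kit the libraries. HTSeq 0.6, STAR 2.3.0, DESeq2 1.8.1, CASAVA 1.8.2, SAMtools 1.2 and the build mm10 appear in the submitters' processing notes, with no role. The sources used here do not give the annotation, strand setting or read length. The 5 closing lines of each file (reads without a feature, 9.74% to 11.7% of reads, ambiguous reads, 1.93% to 2.32%, and others) were set aside.

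Gene IDs were matched to GENCODE M21 symbols (36602 of 38355). Counts were filtered with filterByExpr, scaled by TMM and tested across 16539 genes with the quasi-likelihood test of edgeR 4.0.16, with Benjamini-Hochberg adjustment and genotype as the only term. The calls of 50 genes per fold size, tested on simulated data of 16539 genes, recovered 18%, 66%, 94% and 94% of 2-, 4-, 8- and 16-fold changes. The changed genes were drawn from those with a mean above 1 CPM, so recovery below that level was not measured. Of the unchanged genes, 8 were called. Alternatives were DESeq2 1.42.0, limma-voom 3.58.1, DESeq2 size factors, no filter, leaving out each tumour, the replicate number or the title letter as a term, and 2 other gene lengths. Exact 95% intervals cover counting error only. The tumours came from separate mice, and all pairs of libraries differed beyond sampling noise. The 36 genes and the lists were chosen with earlier results of these data known. Named from each list were up to 4 called genes of smallest adjusted p, or 2 of smallest unadjusted p where none was called, and a fixed set of muscle genes; 2 genes that this rule names are not reported here.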

Additional observations from a re-analysis of the deposited data

Results flagged for a closer look

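Of the 147 sets of 4 tumours of 1 gene and genotype with at least 10 reads, 13 held a tumour set apart from the other 3 by more than Dixon's 95% limit, where chance gives about 1 in 20. Most were high values of Trp53ΔIEC replicate 1: Tnnc1 at 2.33 CPM, Casq2 at 5.36, Ckmt2 at 0.459, Des at 22.6, Cnn1 at 16.8, Kcnj8 at 12.3, Abcc9 at 16.6, Gata4 at 6.51 and Acta2 at 201.6 CPM. Of the heart and striated muscle genes, Tnni3 was also high in Trp53ΔIEC replicate 2, at 4.59 CPM, and Actn2 was high in Trp53ΔIECAktE17K replicate 3, at 4.49 CPM. Outside muscle, the fat gene Cidec was high in Trp53ΔIECAktE17K replicate 4 at 5.77 CPM, and the liver gene Hpx was high in Trp53ΔIECAktE17K replicate 2 at 2.84 CPM. Without Trp53ΔIEC replicate 1, Tnnc1 passed in the edgeR fit, and without any other single tumour it did not.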

How the results depend on the processing

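The 569 genes called higher became 1416 with DESeq2, 48 with the replicate block and 90 with the title letter as a term, and the 125 called lower became 753, 2 and 6. Leaving out single tumours gave 64 to 702 higher and 10 to 247 lower. Titles carry the letter A for 2 tumours, Trp53ΔIECAktE17K replicates 1 and 2, and B for 6, with no meaning stated. Of the heart and striated muscle genes, 24 called became 9 with the replicate block and 18 to 23 without single tumours. The 16 genes called in the 4 other heart lists became 28 with DESeq2, 0 with the replicate block in edgeR (40 of 76 at an unadjusted p under 0.05) and 3 with the letter, and 2 to 22 without single tumours. The 2 skeletal muscle genes became 1 with the block, 1 with the letter and 1 to 2 without single tumours, and the 9 smooth muscle genes became 3, 4 and 4 to 7. The median log2 fold change of the heart and striated muscle genes, 4.82, lay between 4.51 and 4.99 under these settings. The cause of these moves was not tested. Same-numbered tumours did not deviate together (correlations -0.0393, 0.0083, -0.243 and 0.0093), so the block pairs samples that share only a number. With coding length the ratio of Tnni3 to Tnni1 turned to 0.899 and that of Casq2 to Casq1 to 1.12. It moved to 3.88 for Myl3 to Myl4, 0.316 for Myl2 to Myl7 (0.211 with the longest transcript), 8.26 for Tnnt2 to Tnnt1, 683.8 for Atp2a2 to Atp2a1, 62.7 for Myoz2 to Myoz1 and 31.7 for Myh6 to Nkx2-5. The median CV of all genes in the count range moved from 26.6% to 55.9% when held to genes at the minimum level in all 4 Trp53ΔIECAktE17K and not in all 4 Trp53ΔIEC tumours. Depth limits Nppa, Tbx5 and Nkx2-5, which had 14, 7 and 26 reads over the 4 Trp53ΔIECAktE17K tumours.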

Other observations

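A search of all genes for the pattern of the strongest structural genes, chosen after the values were seen, asked for at least 1 CPM in every Trp53ΔIECAktE17K tumour and a mean under 0.3 CPM in Trp53ΔIEC. It found 64 genes, of which 16 were among the 36. The search used the difference between genotypes, so it is a description. Of the 64, 16 had a CV under 20% among the Trp53ΔIECAktE17K tumours, and 12 of these were among the 36. The other 4 were Smyd1, a methyltransferase that heart and skeletal muscle need for sarcomere assembly, Adprhl1, Lrtm1 and Lingo3. Of the 48 genes with a CV of 20% or more, 4 were among the 36. The median CV was 58.7% over the 64 genes and 72.5% over those that were not among the 36.

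Marker lists of cell types and tissues other than muscle and pericytes numbered 9. Among them were endothelium and colon epithelium, which the tumours themselves hold. Of the 48 tested genes of these lists 6 passed, 3 higher and 3 lower, or 12.5% where 4.2% of all genes did. Which tissue these reads came from was not tested. The 10 tested hepatocyte genes had a median log2 fold change of -0.139. The hepatocyte list summed to between 82.9 and 144 CPM in Trp53ΔIEC and to between 35.2 and 162.4 CPM in Trp53ΔIECAktE17K, with overlap. Hepatocyte genes included 2 that were lower in Trp53ΔIECAktE17K: Crp, an acute phase protein, at 5.17, 5.64, 4.8 and 4.84 CPM in Trp53ΔIEC against 0.0423, 0, 0 and 0 CPM, and Hpx, which binds haem, at 12.4, 11.7, 12 and 12.5 CPM against 1.19, 2.84, 1.3 and 1.12 CPM. Both kept their calls (adjusted p under 0.05, edgeR) in all 8 removals of single tumours. In Trp53ΔIEC, Crp was at 5.11 ± 0.388 CPM and Hpx at 12.1 ± 0.384 CPM (SD, n = 4). Alb, the main plasma protein, was at 25.1, 21.4, 34.7 and 21.7 CPM against 5.46, 5.19, 0.672 and 9.41 CPM and did not pass (adjusted p = 0.087, edgeR). Brain genes gave 2 higher, Snap25 and Slc17a7, with calls kept in 2 and 0 of 8 removals. Endothelial genes gave 1 higher, Plvap, and brown fat genes 1 lower, Prdm16, each kept in 1 of 8. The lists of white fat, pancreatic acinar, lung alveolar, kidney tubule and colon epithelium genes gave no call among 16 tested in edgeR, with 3 at an unadjusted p under 0.05, none in limma-voom and 2 lower in DESeq2.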
